A study of Mus musculus with 15 samples.

Results

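Day 12 +Fgf tissue was set against Day 12 +Wnt tissue to measure how far the 2 optic fates had separated after 2 days of stimulation. The comparison used 6 of the 15 libraries of the study, 3 per arm, and all gene entries with a value of at least 1 in at least 3 of the 15 libraries, which were 13845 of 23244. The starting tissue came from an Rx::GFP line of EB5 mouse embryonic stem cells (labelled EB5 Rx::GFP+/-), grown as aggregates by the SFEBq method with Matrigel. GFP-positive epithelium was cut out at Day 10, and was either collected (Day 10 Rx::GFP+) or cultured on in retinal maturation medium. In +Wnt tissue the inhibitor CHIR99201 blocked the kinase GSK3, at 3 μM during the first 24 h and then at 1 μM. In +Fgf tissue the medium held 5 ng/ml human recombinant bFgf together with 10% FBS. The effects of bFgf and of serum therefore cannot be told apart, and no Day 12 tissue without either treatment was analysed here, so the Day 10 values are given beside both arms. All groups came from 1 cell line. The study describes its samples as biological triplicates, without saying how the cultures were divided between them.

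The neural retina and the retinal pigmented epithelium (RPE) both arise from the bipotent optic vesicle. Fgf signaling through the MAPK cascade favors neural retina and holds the pigment regulator Mitf down, whereas Wnt/β-catenin signaling works with Otx2 and Mitf to sustain pigment genes. Both pathways induce their own inhibitors, such as Dusp6 and Spry4 downstream of Fgf and Axin2 downstream of Wnt, and the transcripts of these genes are commonly read as a measure of pathway activity.

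Between 14318491 and 16175450 reads were assigned to genes in each Day 12 library. A read here and below is 1 fragment of the paired-end libraries, as the study counted them. In these libraries 1 read was worth 0.0629 to 0.0696 of the deposited unit, which is called normalized CPM below. These values are not divided by gene length, so levels are compared between samples and not between genes. The labels call +Fgf tissue neural retina and +Wnt tissue RPE, and the defining genes Rax and Six6 of the first and Mitf, Otx2, Tyr and Pmel of the second were present and higher in the arm of that name, although Day 10 tissue held both sets. Log2 values between replicates of one arm had Pearson's r of 0.989 to 0.995 across genes, against 0.931 to 0.950 between arms. In bulk tissue, fewer cells of a type and less RNA per cell cannot be told apart. Values are given as mean ± SD (n = 3 libraries), differences as log2 of +Fgf over +Wnt with the standard error (SE) of the limma fit, and adjusted p-values are by Benjamini-Hochberg over all tested genes with a threshold of 0.05.

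Of the 13845 genes, 7130 (51.5%) differed between the arms, 3639 (26.3%) being higher in +Fgf and 3491 (25.2%) higher in +Wnt. Most of these differences were small, with a median absolute log2 difference of 0.48 among the genes called. A log2 difference of at least 1 was found for 1807 genes (13.1%), of which 863 (6.23%) were higher in +Fgf and 944 (6.82%) higher in +Wnt. The larger differences leaned toward +Fgf, since 327 genes were higher there by at least 2 and 134 by at least 3, against 241 and 52 in +Wnt. The values of the arms did not overlap for 8358 genes (60.4%). The median log2 difference over all tested genes was -0.0021, which is the level against which the medians of gene groups below can be read. Counts of group members called can likewise be read against 51.5% in either direction, 26.3% toward +Fgf and 25.2% toward +Wnt.

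**Figure D1:**
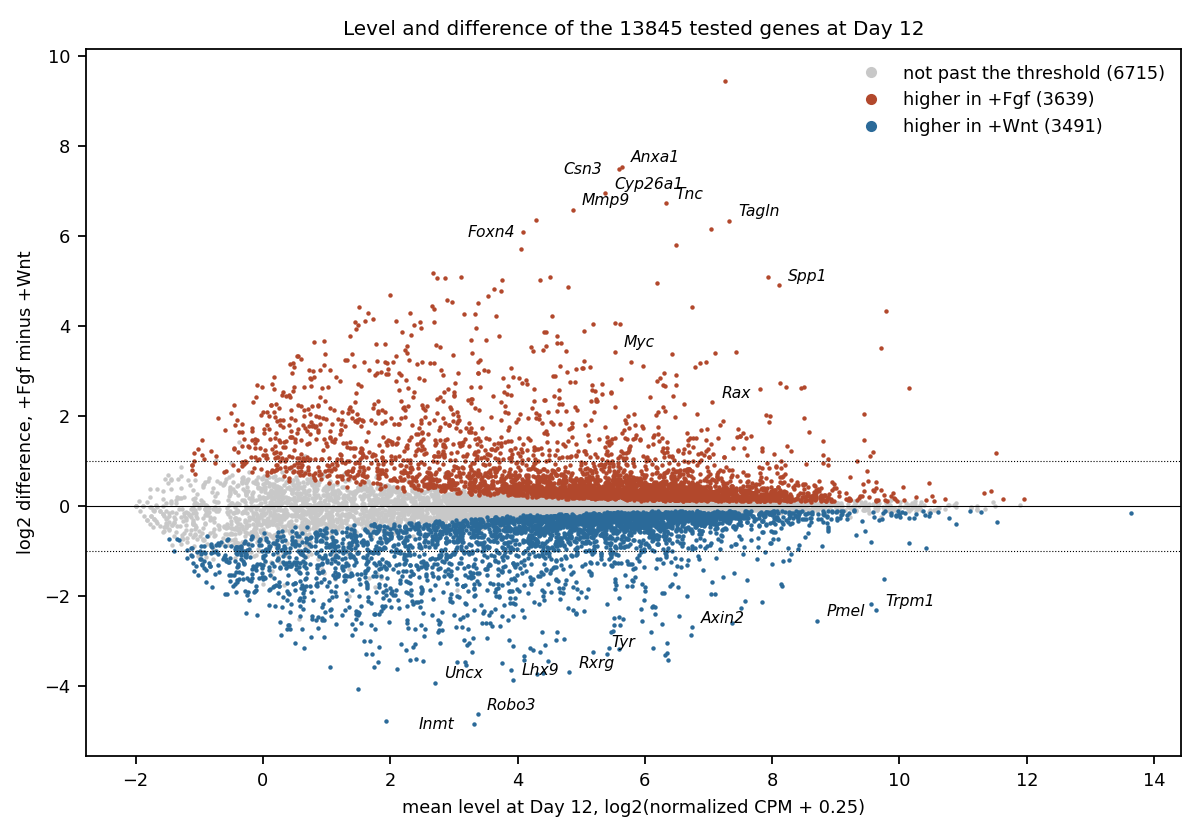
Each point is 1 of the 13845 tested genes, with the mean level of the 6 Day 12 libraries on the x axis (log2 of normalized CPM + 0.25) and the log2 difference of +Fgf minus +Wnt on the y axis. Red points (3639) were higher in +Fgf, blue points (3491) higher in +Wnt and grey points did not pass the threshold, with dotted lines at differences of 1 and -1. The largest differences lie on the +Fgf side, where 7.54 for Anxa1 is the highest of the labelled points, while the most negative is -4.85 for Inmt.

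Feedback genes of the Fgf/MAPK pathway were higher in +Fgf tissue almost throughout. Of 13 tested members (Sprouty, Spred, dual-specificity phosphatase and Etv genes and Il17rd), 12 were higher in +Fgf and none in +Wnt, with a median log2 difference of 1.65. Dusp6, a phosphatase that inactivates ERK, read 151, 148 and 165 in the +Fgf libraries, 19.5, 25.3 and 26.7 in the +Wnt libraries and 55.2, 56.3 and 55.9 at Day 10, so each +Fgf library lay above and each +Wnt library below all Day 10 libraries. The difference was 2.69, SE 0.12, with adjusted p = 1.2e-11. The transcription factor Etv4 read 48.9 ± 0.389 in +Fgf, 7.20 ± 2.15 in +Wnt and 7.96 ± 0.77 at Day 10, a difference of 2.76, SE 0.15 that arose by a rise in +Fgf with no detected change in +Wnt. Etv5 differed by 2.84, SE 0.12 and the MAPK inhibitor Spry4 by 2.64, SE 0.13. The exception was Dusp4, whose values of 58.0, 55.2 and 70.4 and 54.0, 69.0 and 84.6 overlapped between the arms and were above Day 10 in both (0.68 in +Fgf and 0.84 in +Wnt).

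Wnt/β-catenin feedback genes had the opposite tilt. Of 14 tested members, 11 were higher in +Wnt, 1 was higher in +Fgf and 2 did not pass (Nkd1 and Nkd2), and the median log2 difference was -1.15. Axin2, a scaffold of the β-catenin destruction complex, read 174, 180.3 and 199 in +Wnt, 31.2, 37.7 and 19.3 in +Fgf and 76.3, 82.9 and 85.2 at Day 10. No library of one arm overlapped the other, and the difference of -2.69, SE 0.23 (adjusted p = 4.7e-08) comprised a rise of 1.18 in +Wnt and a fall to -1.52 in +Fgf against Day 10. The receptor gene Tnfrsf19 differed by -2.61, SE 0.51, the transcription factor Sp5 by -2.15, SE 0.33, and Lef1, a nuclear partner of β-catenin, by -0.97, SE 0.20. Lgr5, which encodes an R-spondin receptor, ran against the other members. Its values of 3.46, 2.92 and 3.84 in +Wnt were all below those of 28.1, 24.0 and 27.2 in +Fgf and 29.9, 44.1 and 32.2 at Day 10, and it was higher in +Fgf by 2.87, SE 0.15 (adjusted p = 1.5e-10).

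Sp5 was 1 of 2 Wnt feedback genes with a TCF/LEF match in the 250 bases before the start site, and its upstream sequence is shown for that reason. The start sites and sequences were those of RefSeq for GRCm38.p6, which had an entry for 10 of the 14 tested members. The letters searched were CTTTGAT on either strand, given in capitals here and in all sequences below, and they were present before 2.64% of the 10199 tested genes with an entry, 1.68% of the genes higher in +Fgf by at least 1 (10 of 597) and 4.08% of those higher in +Wnt by at least 1 (27 of 662). A match describes the letters and is not evidence of binding.
Sp5 (chr2:70474673-70474922, + strand): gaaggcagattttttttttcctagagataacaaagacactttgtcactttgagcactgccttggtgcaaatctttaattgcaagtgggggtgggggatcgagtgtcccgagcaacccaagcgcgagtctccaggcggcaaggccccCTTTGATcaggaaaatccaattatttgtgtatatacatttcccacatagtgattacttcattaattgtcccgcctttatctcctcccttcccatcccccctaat

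Immediate early and AP-1 genes, which many growth factors induce within minutes, formed the third signaling group. Of 15 tested members, 13 were higher in +Fgf and none in +Wnt, with a median of 1.71. Myc, a regulator of growth, read 93.5, 81.9 and 76.4 in +Fgf and 7.61, 7.45 and 7.61 in +Wnt, against 115, 137 and 121 at Day 10. The +Fgf libraries were thus below Day 10 as well, and the difference of 3.43, SE 0.15 (adjusted p = 1.2e-11) came with a change against Day 10 of -3.99 in +Wnt and -0.57 in +Fgf. The AP-1 subunit Fos behaved in a like way, with 9.91 ± 0.556 in +Fgf, 1.21 ± 0.145 in +Wnt and 10.3 ± 3.14 at Day 10, whereas Junb was above Day 10 in +Fgf (1.02) and below it in +Wnt (-2.38). Over the group, 8 members rose and 3 fell in +Fgf against Day 10, and none rose and 13 fell in +Wnt. Fosb fell in both arms, from 4.96 ± 2.26 at Day 10 to 0.51 ± 0.294 and 0.283 ± 0.126, and the difference between them did not pass (adjusted p = 0.26).

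**Figure D2:**
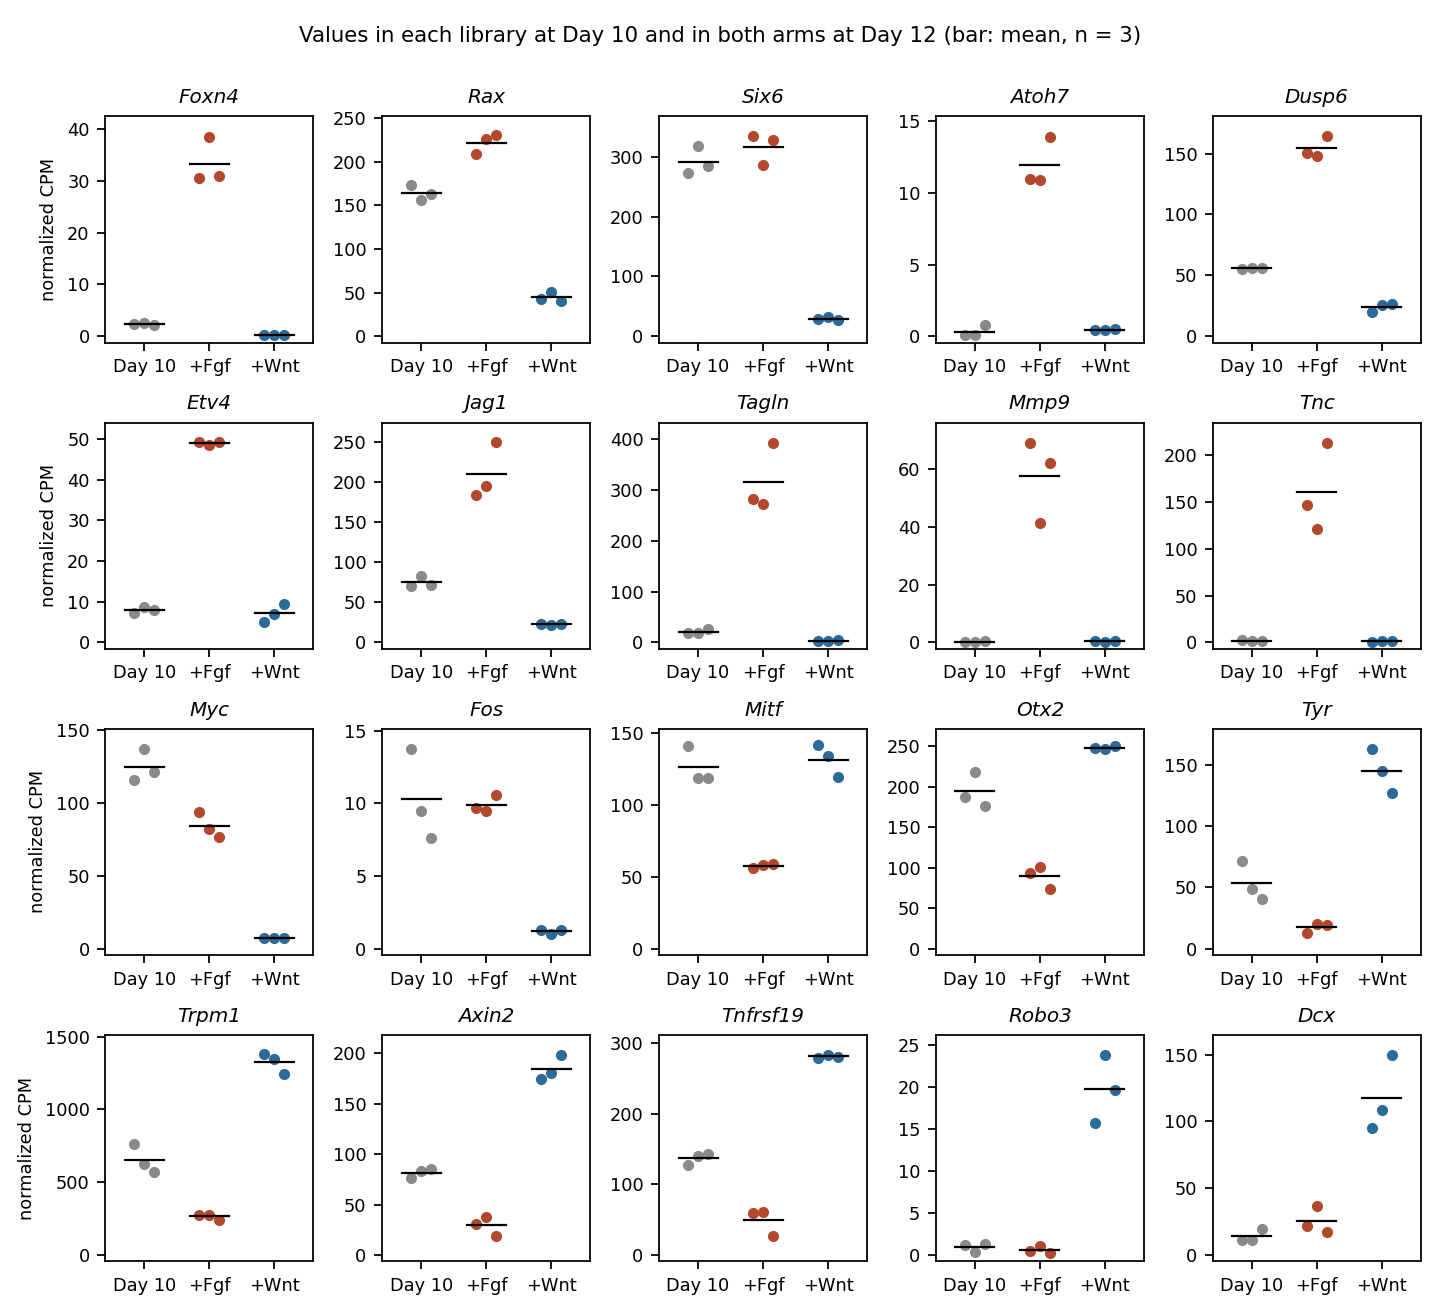
Points are single libraries at Day 10 (grey), Day 12 +Fgf (red) and Day 12 +Wnt (blue), bars are means of 3 libraries, and each panel has its own linear y axis of normalized CPM. In each of the 20 panels the values of the Day 12 arms are apart. Foxn4 was close to 0 in +Wnt (0.242 ± 0.0293), while Mmp9 and Tnc were close to 0 at Day 10 and in +Wnt alike.

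Among eye field and neural retina transcription factors, 6 of 8 tested members were higher in +Fgf and none in +Wnt (median 1.40). Six6, which is needed for optic progenitors to expand, read 335, 287 and 329 in +Fgf and 29.4, 31.8 and 26.6 in +Wnt, with Day 10 values of 273, 318 and 285 that overlapped those of +Fgf. Its difference was 3.43, SE 0.14 (adjusted p = 6.5e-12). Rax, whose reporter was used to isolate the tissue, differed by 2.31, SE 0.084 (adjusted p = 2e-12), with 209, 226 and 230.3 in +Fgf, 43.0, 51.1 and 39.9 in +Wnt and 174, 157 and 163 at Day 10.

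Differences were smaller in Six3, Sox2 and Pax6. Six3 differed by 1.51, SE 0.082, the progenitor factor Sox2 by 1.29, SE 0.065 and the eye master regulator Pax6 by 0.90, SE 0.054. Lhx2, which specifies the eye field, read 325, 278 and 305 in +Fgf and 275, 274 and 270.4 in +Wnt. The lowest +Fgf value was only just above the highest +Wnt value and the difference of 0.15, SE 0.069 did not pass (adjusted p = 0.089), although it passed without +Fgf replicate 2. Both arms were below Day 10 (-0.66 and -0.80). Nr2e1 did not pass either, at 48.2 ± 8.02 and 45.5 ± 10.8. Over the group, the median change against Day 10 was 0.16 in +Fgf, with 4 rising and 1 falling, and -1.24 in +Wnt, with 1 rising and 7 falling. Both medians use the same Day 10 libraries.

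RPE transcription factors were higher in +Wnt in 6 of 7 cases (median -1.24). Mitf, the main regulator of pigment genes, read 141, 134 and 119 in +Wnt, 56.2, 58.1 and 58.9 in +Fgf and 141, 119 and 118 at Day 10. The +Wnt and Day 10 values overlapped, and it was the +Fgf libraries that lay apart. The difference was -1.18, SE 0.075 (adjusted p = 1.2e-09), and the change against Day 10 was -1.12 in +Fgf and 0.061 in +Wnt, the latter not passing the threshold (adjusted p = 0.5). Otx2, which acts with Mitf, read 248 ± 1.85 in +Wnt, 89.5 ± 13.9 in +Fgf and 194 ± 21.5 at Day 10, and differed by -1.48, SE 0.09. Otx1 differed by -1.26, SE 0.10, Tfec by -1.48, SE 0.19 and the nuclear receptors Nr2f1 and Nr2f2 by -0.91 and -1.24. Sox9, which is expressed by pigment cells and by retinal progenitors, was higher in +Fgf (0.34, SE 0.078).

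All 15 tested melanin synthesis and melanosome genes were higher in +Wnt (median -1.76), and the arms did not overlap in any of them. Tyr, the rate-limiting enzyme of melanin synthesis, read 163, 145 and 127 in +Wnt, 13.2, 20.3 and 19.5 in +Fgf and 71.5, 48.6 and 40.6 at Day 10. It had risen in +Wnt (1.47) and fallen in +Fgf (-1.57), for a difference of -3.04, SE 0.18 (adjusted p = 5.9e-10). Pmel, the fibril protein of the melanosome, read 853, 724 and 575 in +Wnt and 109.7, 127 and 126 in +Fgf. Its Day 10 values of 694, 513 and 472 overlapped those of +Wnt, the rise there not passing (0.36, adjusted p = 0.052), and the difference was -2.55, SE 0.15. The cation channel gene Trpm1, which hosts a microRNA regulated by Mitf, reached 1383, 1348 and 1241 in +Wnt against 278, 274 and 243 in +Fgf (-2.32, SE 0.12). The smallest difference was that of the cystine transporter Slc7a11 (-0.40, SE 0.064). Against Day 10, 9 members rose and none fell in +Wnt, and none rose and 11 fell in +Fgf.

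The M-box is the E-box through which Mitf is known to activate melanin genes, and the upstream sequences of 3 members are shown because they hold its letters close to the start site. The letters TCATGTG on either strand were found in the 250 bases before 7 of 10 melanin genes with a RefSeq entry, against 2.25% of the 10199 tested genes. The share was 4.38% of the genes higher in +Wnt by at least 1 (29 of 662) and 1.01% of those higher in +Fgf by at least 1 (6 of 597). The matches start -22 bases from the start site in Tyr, -47 in Tyrp1 and -13 in Slc24a5. These genes were picked for display after their values and matches were known.
Tyr (chr7:87493513-87493762, - strand): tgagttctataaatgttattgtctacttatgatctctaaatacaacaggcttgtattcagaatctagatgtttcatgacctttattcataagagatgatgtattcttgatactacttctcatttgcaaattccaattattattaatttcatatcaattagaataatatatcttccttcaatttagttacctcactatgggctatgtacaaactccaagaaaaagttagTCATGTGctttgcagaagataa
Tyrp1 (chr4:80833963-80834212, + strand): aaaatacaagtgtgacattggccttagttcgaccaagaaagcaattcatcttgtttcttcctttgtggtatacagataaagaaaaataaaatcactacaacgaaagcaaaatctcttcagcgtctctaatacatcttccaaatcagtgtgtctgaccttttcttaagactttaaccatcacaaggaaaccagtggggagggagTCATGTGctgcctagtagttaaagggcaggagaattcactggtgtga
Slc24a5 (chr2:125067877-125068126, + strand): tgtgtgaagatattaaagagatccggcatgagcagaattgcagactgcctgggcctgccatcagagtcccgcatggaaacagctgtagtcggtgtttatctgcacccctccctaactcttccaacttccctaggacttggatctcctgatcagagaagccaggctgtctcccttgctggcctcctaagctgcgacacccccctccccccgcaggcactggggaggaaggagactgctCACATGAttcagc

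Tyrp1, which stabilizes Tyr and oxidizes a melanin intermediate, read 69.6 ± 12.3 in +Wnt and 15.2 ± 1.75 in +Fgf (-2.17, SE 0.14). Slc24a5, a melanosomal ion exchanger, read 12.8, 10.0 and 6.75 in +Wnt and 2.85, 3.25 and 1.98 in +Fgf, the latter within the Day 10 range of 3.07, 2.81 and 1.91 except for 1 library above it (-1.76, SE 0.27). Genes of the visual cycle and of mature RPE were also higher in +Wnt in 6 of 7 cases (median -0.83), led by the retinaldehyde-binding protein Rlbp1 at 83.7 ± 7.97 against 13.1 ± 0.528 (-2.65, SE 0.14). Mertk, the receptor for uptake of outer segments, differed by -1.77, SE 0.21. The other 4 members were too low to test, and the isomerase gene Rpe65 and the opsin gene Rgr had no read in any Day 12 library.

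**Figure D3:**
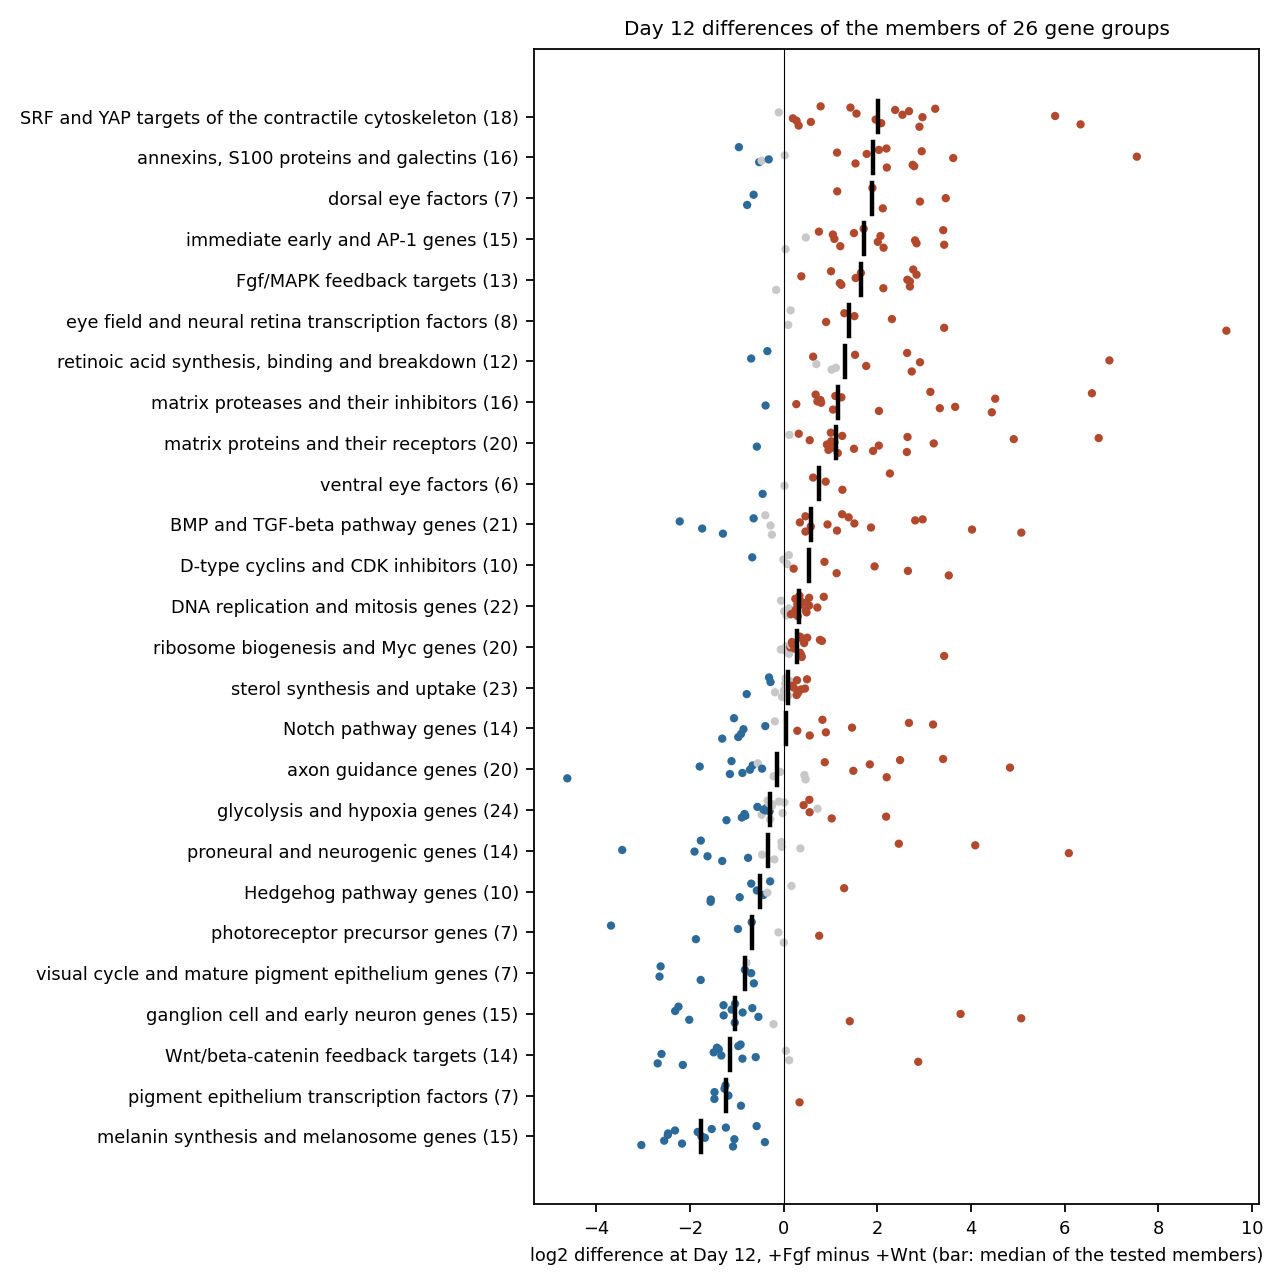
Points are the tested members of 26 gene groups, with the number tested in parentheses, placed by their log2 difference at Day 12 (+Fgf minus +Wnt), and black bars are group medians. Red and blue points passed the threshold toward +Fgf and +Wnt and grey points did not. Contractile genes have the highest median (2.02) and melanin genes the lowest (-1.76), and groups near the middle, such as Notch and axon guidance genes, hold members far out on both sides.

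Regional markers of the optic cup were mostly higher in +Fgf. Of 7 dorsal eye genes, 5 were higher in +Fgf and 2 in +Wnt (Bmp4 and Efnb1), and of 6 ventral eye genes 4 were higher in +Fgf and 1 in +Wnt (Ephb3). The dorsal T-box factor Tbx3 read 32.3, 45.7 and 37.4 in +Fgf, 4.47, 2.64 and 2.85 in +Wnt and 30.8, 23.5 and 29.6 at Day 10 (3.46, SE 0.26, adjusted p = 9.7e-09). The ventral factor Pax2, which marks the optic stalk, read 51.8, 21.0 and 53.2 in +Fgf and 9.69, 6.06 and 8.21 in +Wnt (2.27, SE 0.31). Within the +Fgf arm the 3 libraries were unlike in these genes. All 7 dorsal genes were highest in replicate 2, and all 6 ventral genes were lowest there. Aldh1a1, a dorsal enzyme of retinoic acid synthesis, spanned 37.1, 291 and 155 in +Fgf against 10.8, 29.6 and 11.8 in +Wnt and 596, 552 and 763 at Day 10, and its difference had a wide error (2.91, SE 0.51).

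Retinoic acid genes were higher in +Fgf in 7 of 12 cases and in +Wnt in 2, and the remaining 3 did not pass. Cyp26a1, which breaks retinoic acid down, read 65.7, 85.4 and 95.6 in +Fgf, 1.01, 0.139 and 0.331 in +Wnt and 5.45, 3.74 and 5.73 at Day 10 (6.95, SE 0.45, adjusted p = 1.6e-09). It had thus risen in +Fgf and fallen in +Wnt. Crabp2, which carries retinoic acid to the nucleus, was slightly higher in +Wnt (-0.35, SE 0.081).

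Neurogenic genes differed in both directions. Of 14 proneural and neurogenic genes, 3 were higher in +Fgf, 6 higher in +Wnt and 5 did not pass. The 3 were Foxn4, Atoh7 and the Notch ligand Dll4. Foxn4, which gives retinal progenitors the competence for amacrine and horizontal fates, read 30.5, 38.5 and 31.0 in +Fgf, 0.252, 0.209 and 0.265 in +Wnt and 2.45, 2.47 and 2.22 at Day 10 (6.09, SE 0.15, adjusted p = 2.4e-14). Atoh7, which is required for retinal ganglion cells, read 11.0, 10.9 and 13.9 in +Fgf and 0.44, 0.418 and 0.53 in +Wnt (4.09, SE 0.34). In the opposite direction, Neurog1, a proneural factor of other parts of the nervous system, read 10.3, 10.4 and 9.47 in +Wnt and 0.444, 1.66 and 0.383 in +Fgf (-3.45, SE 0.33), and Olig2, Neurod4, Dll3 and Dll1 were higher in +Wnt by log2 differences of -1.77, -1.91, -1.63 and -1.31.

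Among ganglion cell and early neuron genes, 3 of 15 were higher in +Fgf, 11 higher in +Wnt and 1 did not pass (median -1.04). Replicate 3 of +Wnt had the highest value of its arm in 14 of the 15, a median of 0.55 (log2) above the other two, and replicate 1 the lowest in 13, while 14 members passed also without replicate 3. The 3 higher in +Fgf were Pou4f2, Isl1 and Sncg, which ganglion cells of the retina express. Pou4f2 read 14.0, 8.47 and 15.5 in +Fgf and 0.0629, 0.0696 and 0.265 in +Wnt (5.07, SE 0.33), and Isl1 26.05, 15.6 and 30.4 and 0.944, 1.46 and 2.18 (3.78, SE 0.31). The genes higher in +Wnt are shared by neurons of many regions. Dcx, which binds microtubules in migrating neurons, read 94.8, 108 and 149.8 in +Wnt, 21.7, 36.8 and 17.5 in +Fgf and 11.3, 11.2 and 19.6 at Day 10 (-2.25, SE 0.25). The neuronal tubulin Tubb3 read 364 ± 49.7 and 149 ± 10.3 (-1.29, SE 0.16), and the tau gene Mapt differed by -2.32, SE 0.21. Against Day 10 the group rose in both arms, with 11 members up and 1 down in +Fgf (median 1.00) and 10 up and none down in +Wnt (median 1.85).

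Robo3, Uncx, Lhx9, Ebf2 and Dmrt3 were among the largest differences toward +Wnt. Robo3, a receptor of commissural axons, read 15.7, 23.7 and 19.6 in +Wnt, 0.507, 1.083 and 0.256 in +Fgf and 1.16, 0.334 and 1.30 at Day 10 (-4.62, SE 0.48, adjusted p = 4.9e-07). The homeobox gene Uncx read 13.4, 12.2 and 9.80 in +Wnt and 0.19, 1.91 and 0.256 in +Fgf (-3.93, SE 0.44), and Lhx9 24.3, 25.8 and 33.6 and 1.77, 3.44 and 0.703 (-3.86, SE 0.34). These 3 rose in +Wnt against Day 10. The neuronal factor Ebf2 differed by -3.72, SE 0.36, and the cortical hem and pallium factor Dmrt3 by -3.71, SE 0.59, the latter through a fall in +Fgf (-3.03) with no detected change in +Wnt. Of 11 tested markers of brain regions outside the eye, 6 were higher in +Wnt (Emx1, Emx2, Lmx1a, Lmx1b, Wnt1 and Wnt3a, which mark dorsal midline and cortical territories) and 4 in +Fgf (among them Dlx1, Dlx2 and Gbx2). The study also counts Wnt3a among Wnt/β-catenin signaling genes and targets. Against Day 10, 1 of the 11 rose and 1 fell in +Wnt, and 3 rose and 5 fell in +Fgf. Lmx1a read 25.3 ± 4.77 in +Wnt, 3.25 ± 1.72 in +Fgf and 16.3 ± 2.25 at Day 10 (-2.98, SE 0.40). Emx1 no longer passed when +Fgf replicate 3 was left out. The markers summed to 187 to 228 in the +Wnt libraries, 107 to 143 in the +Fgf libraries and 149.97 to 182 at Day 10, and their part in the differences of neuronal genes was not tested.

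Photoreceptor precursor genes were mostly higher in +Wnt, with 4 of 7 tested members higher there and Rom1 higher in +Fgf. Rxrg, a nuclear receptor of cones, read 48.7, 61.0 and 46.2 in +Wnt, 4.06, 4.59 and 2.87 in +Fgf and 35.7, 28.5 and 31.3 at Day 10 (-3.69, SE 0.17, adjusted p = 2.4e-11). Thrb, which specifies one cone type, read 27.8 ± 1.98 in +Wnt and 14.0 ± 0.941 in +Fgf (-0.98, SE 0.11). Nrl, the rod determinant, had no read in any Day 12 library. The list summed to 83.7 to 93.4 in +Wnt and 23.5 to 26.2 in +Fgf. Most of this came from Rxrg and Thrb, the other members being low, and 3 members passed with a filter of 10 CPM.

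Notch genes were divided between the arms, with 7 of 14 higher in +Fgf and 6 higher in +Wnt. The ligand Jag1 read 184, 195 and 249.7 in +Fgf, 22.8, 21.9 and 23.0 in +Wnt and 70.7, 83.4 and 71.9 at Day 10 (3.19, SE 0.094, adjusted p = 2.2e-13), so it had risen in one arm and fallen in the other. The effectors Hes1 (1.46, SE 0.092) and Heyl (2.67, SE 0.29) were higher in +Fgf. The ligands Dll1 and Jag2 (-0.91) and the effectors Hes5 (-0.97) and Hey2 (-1.06) were higher in +Wnt. Axon guidance genes were likewise divided, 7 of 20 being higher in +Fgf and 8 in +Wnt. Toward +Fgf the repellent Sema3e read 23.4, 24.9 and 22.6 against 1.07, 0.278 and 0.596 (4.83, SE 0.25) and the netrin receptor Unc5b differed by 3.40, SE 0.16, while toward +Wnt the netrin receptor Dcc differed by -1.79, SE 0.17 besides Robo3.

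Genes of the contractile cytoskeleton and the extracellular matrix were higher in +Fgf almost throughout. Of 18 tested SRF and YAP targets of the contractile cytoskeleton, 17 were higher in +Fgf and none in +Wnt (median 2.02). Tagln, an actin-binding protein of smooth muscle and contractile fibroblasts, read 282, 273 and 393 in +Fgf, 3.40, 3.41 and 4.04 in +Wnt and 18.7, 17.7 and 27.1 at Day 10 (6.34, SE 0.22, adjusted p = 1.3e-12). Exons of Tagln overlap those of Pcsk7 on the other strand. Smooth muscle actin, Acta2, read 157, 156 and 218 and 3.77, 2.58 and 2.52 (5.79, SE 0.18). Both rose in +Fgf and fell in +Wnt against Day 10. The YAP targets Ctgf and Cyr61 differed by 2.38 and 2.53. Lats2, a kinase that restrains YAP, did not pass (34.6 ± 0.61 and 37.3 ± 1.48, adjusted p = 0.26). In the group as a whole, 14 genes rose and 4 fell in +Fgf against Day 10, and all 18 fell in +Wnt.

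Serum response factor binds the CArG box, and 2 upstream sequences with a match are shown. A CArG match on either strand was found in the 250 bases before 4 of 14 genes of this group with a RefSeq entry (Myl9, Cnn2, Vcl and Srf itself), against 1.42% of the 10199 tested genes, 3.52% of those higher in +Fgf by at least 1 (21 of 597) and 1.51% of those higher in +Wnt by at least 1 (10 of 662). CArG letters also preceded 2 of the 10 Wnt feedback genes with an entry, as many as held TCF/LEF letters. The match starts -56 bases from the start site of Cnn2, and Srf has 2 matches that start -82 and -62 bases from its own.
Cnn2 (chr10:79988350-79988599, + strand): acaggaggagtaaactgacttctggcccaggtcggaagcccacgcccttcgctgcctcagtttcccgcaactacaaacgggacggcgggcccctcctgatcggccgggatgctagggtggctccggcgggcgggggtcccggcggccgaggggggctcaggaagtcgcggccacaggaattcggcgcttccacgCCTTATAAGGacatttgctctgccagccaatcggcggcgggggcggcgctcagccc
Srf (chr17:46556163-46556412, - strand): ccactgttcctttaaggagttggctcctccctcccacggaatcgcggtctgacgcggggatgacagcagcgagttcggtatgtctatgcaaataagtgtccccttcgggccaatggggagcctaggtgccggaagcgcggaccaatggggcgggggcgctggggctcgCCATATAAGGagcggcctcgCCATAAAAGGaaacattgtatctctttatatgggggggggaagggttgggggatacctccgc

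Cnn2, an actin-binding calponin, read 129, 132 and 158 in +Fgf, 17.3, 16.5 and 19.1 in +Wnt and 65.3, 51.9 and 66.2 at Day 10 (2.96, SE 0.11). Srf itself moved little, at 62.6, 57.1 and 61.6 and 51.8, 53.9 and 52.5 (0.20, SE 0.066, adjusted p = 0.02), with both arms below the Day 10 mean of 68.7 ± 6.81.

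Matrix proteases and their inhibitors were higher in +Fgf in 15 of 16 cases, Mmp15 being higher in +Wnt (median 1.17). The gelatinase Mmp9 read 69.0, 41.3 and 62.2 in +Fgf, 0.44, 0.209 and 0.397 in +Wnt and 0.204, 0.334 and 0.382 at Day 10 (6.58, SE 0.32, adjusted p = 5.9e-11). The urokinase Plau read 17.9, 13.3 and 28.0 against 0.566, 0.974 and 0.331 (4.52, SE 0.30) and its receptor Plaur 2.98, 2.04 and 4.66 against 0.315, 0 and 0.132 (3.13, SE 0.37). Enzyme and receptor were thus higher in the same arm, each with no overlap between libraries. The stromelysin Mmp3 read 3.74, 1.66 and 1.85 in +Fgf and had no read in any Day 10 or +Wnt library. Against 3 reads in each +Wnt library this is at least 12.2-fold higher in +Fgf, a bound that leaves the median of the group as it is.

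Matrix proteins and their receptors were higher in +Fgf in 18 of 20 cases (median 1.12), with Col18a1 the exception and Lama5 not passing. Tenascin, Tnc, a matrix protein of injury and development, read 147, 121 and 212 in +Fgf, 0.629, 1.60 and 1.72 in +Wnt and 2.52, 1.14 and 2.06 at Day 10 (6.73, SE 0.33, adjusted p = 6.3e-11). Osteopontin, Spp1, read 434, 293 and 869.9 against 22.3, 14.0 and 12.4 (4.91, SE 0.32), with replicate 3 of +Fgf far above the other two. Fibronectin, Fn1, read 606 ± 140.3 against 96.2 ± 6.74 (2.63, SE 0.13), and the basement membrane genes Col4a1 and Nid1 differed by 2.64 and 3.203. Among annexins, S100 proteins and galectins, 11 of 16 were higher in +Fgf and 3 in +Wnt (median 1.90). Anxa1, which binds membranes in a calcium-dependent manner, read 79.4, 74.7 and 144 in +Fgf, 0.315, 0.209 and 0.265 in +Wnt and 7.63, 2.81 and 5.73 at Day 10 (7.54, SE 0.31, adjusted p = 8.7e-12). S100a10 (3.62, SE 0.18) and its binding partner Anxa2 (2.78, SE 0.18), which together form a surface receptor for plasminogen, were higher in +Fgf as well.

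AP-1, the dimer of Fos and Jun proteins, binds the letters TGANTCA. They were found before 3 of 11 protease genes with a RefSeq entry (Plaur, Mmp3 and Mmp10) and 2 of 12 annexin, S100 and galectin genes (S100a11 and Anxa2), against 5.17% of the 10199 tested genes. The share was 9.55% among the genes higher in +Fgf by at least 1 (57 of 597) and 6.34% among those higher in +Wnt by at least 1 (42 of 662). No match was found before the 17 matrix, 14 contractile, 10 Fgf feedback and 12 immediate early genes with an entry. ETS and SRE letters were searched as well. ETS letters preceded 0 of 10 Fgf feedback genes, 2 of 10 Wnt feedback genes and 14.7% of the tested genes. They preceded 4.36% of the genes higher in +Fgf by at least 1 and 2.72% of those higher in +Wnt. For SRE the shares were 1.26% of the tested genes, 1.34% in +Fgf and 1.66% in +Wnt. The sequences of Plaur and Anxa2 are shown, with matches that start -69 and -95 bases from the start site.
Plaur (chr7:24462233-24462482, + strand): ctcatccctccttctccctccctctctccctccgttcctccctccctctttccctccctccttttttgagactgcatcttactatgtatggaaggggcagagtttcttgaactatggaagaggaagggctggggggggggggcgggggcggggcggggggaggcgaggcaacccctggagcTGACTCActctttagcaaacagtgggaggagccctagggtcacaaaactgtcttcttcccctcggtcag
Anxa2 (chr9:69453433-69453682, + strand): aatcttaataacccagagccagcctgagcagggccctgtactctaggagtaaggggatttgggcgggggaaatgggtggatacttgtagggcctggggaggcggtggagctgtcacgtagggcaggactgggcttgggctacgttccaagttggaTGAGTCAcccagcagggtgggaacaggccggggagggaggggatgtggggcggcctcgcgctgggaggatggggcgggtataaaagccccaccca

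Genes of the BMP and TGF-β pathways were higher in +Fgf in 14 of 21 cases and in +Wnt in 4. The ligand Tgfb1 read 11.3, 9.24 and 21.1 in +Fgf, 0.252, 0.139 and 0.0662 in +Wnt and 0.886, 0.669 and 0.688 at Day 10 (5.07, SE 0.29), and the TGF-β-induced matrix gene Tgfbi differed by 2.97, SE 0.17. The 4 genes higher in +Wnt were the ligands Bmp4, Bmp5, Bmp6 and Bmp7. Bmp7 read 107, 117 and 119 in +Wnt, 26.7, 30.7 and 17.5 in +Fgf and 104, 86.0 and 97.3 at Day 10 (-2.22, SE 0.18), with the +Fgf libraries below and the +Wnt libraries just above all Day 10 libraries. Hedgehog pathway genes were higher in +Wnt in 7 of 10 cases, with Gli1 and Hhip, which Hedgehog signaling induces, differing by -1.56 and -1.56, while the receptor gene Ptch1, another target, did not pass (20.0 ± 1.98 and 18.1 ± 4.59). The co-receptor Cdon was higher in +Fgf (1.29, SE 0.064).

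DNA replication and mitosis genes had small differences that pointed toward +Fgf. Of 22 members, 18 were higher in +Fgf and none in +Wnt, but the median difference was only 0.32. Mki67 read 443, 438 and 403 in +Fgf, 321, 285 and 310.0 in +Wnt and 215, 274 and 248 at Day 10 (0.49, SE 0.077), both arms being above Day 10. Cyclin D1, Ccnd1, which drives retinal progenitor division, differed much more, at 509, 499 and 525 against 102, 70.2 and 74.6 (2.65, SE 0.14). Among CDK inhibitors, Cdkn2b (3.52, SE 0.30), Cdkn2a (1.94, SE 0.36) and Cdkn1c (1.13, SE 0.17) were higher in +Fgf and Cdkn1a was higher in +Wnt (-0.67, SE 0.067). Ribosome biogenesis genes were higher in +Fgf in 14 of 20 cases with a median of 0.29, and fell against Day 10 in both arms (17 of 20 in +Fgf and all 20 in +Wnt).

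Metabolic groups separated the arms little. The share called was 47.8% of sterol genes and 58.3% of glycolysis and hypoxia genes, against 51.5% of all tested genes. Of 23 sterol synthesis and uptake genes, 8 were higher in +Fgf, 3 in +Wnt and 12 did not pass, and the median difference was 0.09. Instead the group rose in both arms against Day 10, with 19 genes up and none down in +Fgf and 17 up and 1 down in +Wnt. Over all tested genes, 27.9% rose against Day 10 in +Fgf and 30.7% in +Wnt. Hmgcs1, an early enzyme of the pathway, read 708, 819.8 and 619 in +Fgf and 653, 586 and 600.4 in +Wnt, which overlapped, and its difference of 0.21, SE 0.081 was near the threshold (adjusted p = 0.035) and no longer passed when any of 4 of the 6 libraries was left out. Of 24 glycolysis and hypoxia genes, 10 rose and 3 fell in +Fgf against Day 10, and 12 rose and 2 fell in +Wnt. Between the arms, 5 were higher in +Fgf, among them the glucose transporter Slc2a1 (0.55, SE 0.088), and 9 in +Wnt, among them the hypoxia-induced gene Bnip3 (-0.82, SE 0.24).

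Other large differences fell outside these groups. Toward +Fgf, the milk protein gene Csn3 read 87.8, 77.2 and 121 against 0.189, 0.209 and 0.463 (7.49, SE 0.25), Dapl1 33.9, 42.7 and 38.6 against 0.189, 0.278 and 0.199 (6.35, SE 0.17), and the imprinted adaptor gene Grb10 295, 179 and 302 against 2.45, 3.202 and 4.44 (6.16, SE 0.21). All 3 rose in +Fgf and fell in +Wnt against Day 10. Toward +Wnt, the methyltransferase gene Inmt had the largest difference of all genes called, at 21.2, 19.0 and 16.8 in +Wnt and 0.697, 0.573 and 0.128 in +Fgf, and stood at 45.4, 32.3 and 24.8 at Day 10 (-4.85, SE 0.30). It had thus changed by -5.65 in +Fgf and by -0.80 in +Wnt since Day 10. The transporter Slc11a1 (-3.52, SE 0.22) and the cofactor Lmo3 (-3.49, SE 0.21) rose in +Wnt and fell in +Fgf.

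Some markers of other cell types were present in both arms, and others were at or near 0. Of 11 tested neural crest and mesenchyme markers, 3 were higher in +Fgf (Col1a1, Col1a2 and Pdgfrb) and 3 in +Wnt (Tfap2b, Pdgfra and Prrx1), and the defining crest genes Sox10 and Foxd3 did not exceed 0.507 and 0.139 in any Day 12 library. The share of this list that was called, 54.5%, was near the 51.5% of all tested genes. The list summed to 175 to 303 in +Fgf, 130.1 to 180.5 in +Wnt and 87.6 to 112 at Day 10. Col1a1 read 20.4, 30.9 and 20.4 against 2.77, 2.71 and 3.71 (2.85, SE 0.24). The part of such cells in the matrix and contractile differences was not tested. Of 5 tested endothelium and blood markers, 1 was higher in +Fgf (Kdr), 2 in +Wnt and 2 did not pass. The share called was 60%, against 51.5% of all tested genes. Of the endothelial markers, Pecam1 read 0.742 ± 0.129 in +Fgf and 1.92 ± 0.0309 in +Wnt and Cdh5 did not exceed 0.382. Kdr, which retinal progenitors also express, read 155, 98.1 and 169 in +Fgf and 3.15, 3.27 and 6.82 in +Wnt (4.97, SE 0.26). Ptprc, which defines blood cells, did not exceed 0.192. Of 10 surface ectoderm and lens markers, Krt5, Krt14, Trp63, Cryaa and Foxe3 were at or near 0. Of the 5 tested, Krt8 (2.08, SE 0.40), Cryab (1.10, SE 0.20) and Pitx3 (3.00, SE 0.31) were higher in +Fgf, Epcam was higher in +Wnt (-0.74, SE 0.21) and Krt18 did not pass. The list summed to 142 to 171 in +Fgf, 81.8 to 124 in +Wnt and 140.4 to 192 at Day 10, and the part of such cells in other differences was not tested.

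Transcripts of pluripotent cells were still measurable. Pou5f1 read 2.73, 2.61 and 0.447 in +Fgf, 12.4, 6.68 and 5.36 in +Wnt and 8.38, 7.75 and 8.41 at Day 10 (-2.12, SE 0.78, adjusted p = 0.032). The 7 markers summed to 47.4 to 63.1 at Day 10, 23.3 to 63.9 in +Wnt and 4.34 to 19.9 in +Fgf, and 5 of them were higher in +Wnt, but none passed once +Fgf replicate 3 or +Wnt replicate 1 was left out. Of the endoderm and mesoderm markers, only Eomes, which forebrain progenitors also express, differed (39.4 ± 1.64 in +Wnt and 11.0 ± 4.45 in +Fgf, -1.91, SE 0.48), and Afp, T and Mixl1 were at or near 0 in both arms.

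Setting each arm against Day 10 showed in which arm the values lay apart from the starting tissue. By the study's sample sheet, each Day 10 library had a lower RNA integrity number than each Day 12 library. The part of RNA integrity in the changes against Day 10, here and above, was not tested. The 2 comparisons share their Day 10 libraries, so their values are given side by side only. Of the 863 genes higher in +Fgf by at least 1, 667 had risen and 37 had fallen in +Fgf (median 1.02), and 54 had risen and 554 had fallen in +Wnt (median -0.75). Of the 944 genes higher in +Wnt by at least 1, 694 had risen and 20 had fallen in +Wnt (median 1.03), and 91 had risen and 488 had fallen in +Fgf (median -0.62). Over all tested genes 27.9% rose and 27.9% fell in +Fgf, and 30.7% rose and 29.6% fell in +Wnt. The log2 difference between the arms is the +Fgf change minus the +Wnt change. Genes selected as higher in an arm must therefore lie above Day 10 there or below it in the other arm. Their counts thus follow in part from the selection, unlike those over all genes. Proteases moved mainly in +Fgf (median 1.31, against -0.05 in +Wnt). Eye field factors and immediate early genes moved mainly in +Wnt (medians of -1.24 and -1.41, against 0.16 and 0.31 in +Fgf). Melanin genes moved in both, upward in +Wnt (median 0.59) and downward in +Fgf (median -1.07).

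**Figure D4:**
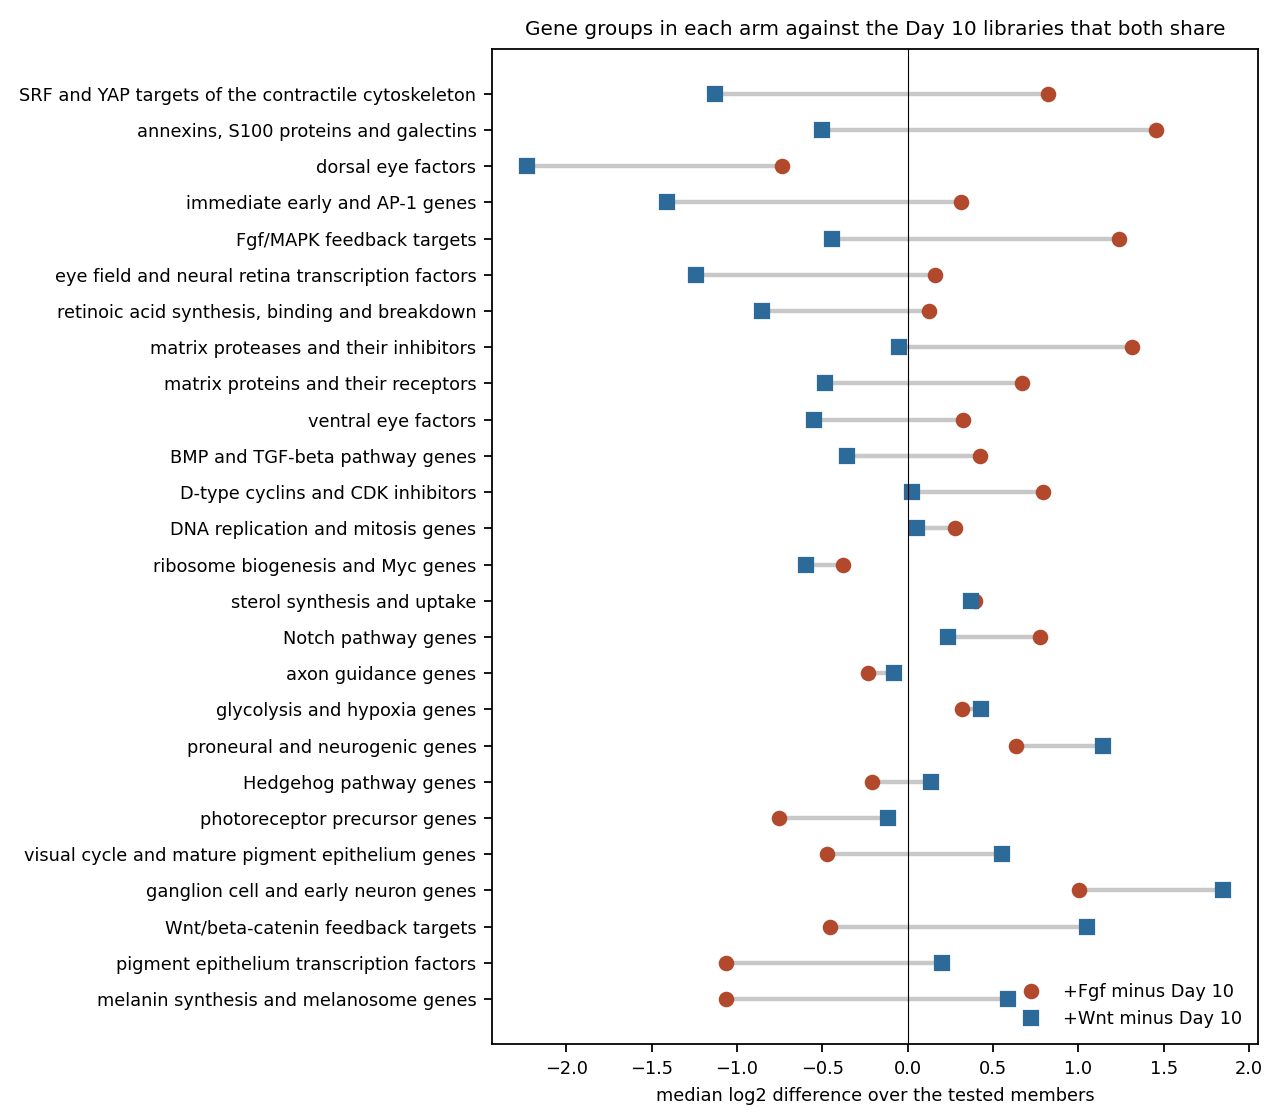
For each of 26 gene groups the median log2 difference from Day 10 over its tested members is shown for +Fgf (red circle) and +Wnt (blue square), with both arms measured against the same 3 Day 10 libraries and a grey line joining them. Sterol genes had nearly the same median in both arms (0.39 and 0.37), while dorsal eye genes lay below Day 10 in both, further in +Wnt (-2.23) than in +Fgf (-0.74).

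The Day 15 libraries, which are separate samples, showed which of the Day 12 differences were still there 3 days later. At Day 15, 9496 genes (68.6%) differed between the arms (38% higher in +Fgf and 30.6% higher in +Wnt), and the difference itself changed between the days for 6609 (47.7%), or for 3829 with the RNA integrity number as a covariate. By the study's sample sheet, each +Fgf library of Day 15 had a lower RNA integrity number than each +Wnt library of Day 15, whereas those of Day 12 overlapped, and its part in the change between the days was not tested. Across all tested genes the differences of the 2 days had Pearson's r of 0.575 and Spearman's rho of 0.556, a description over genes that are not independent. Of the 944 genes higher in +Wnt by at least 1 at Day 12, 786 (83.3%) were higher in +Wnt at Day 15, 43 (4.56%) had turned to +Fgf and 115 did not pass. Of the 863 higher in +Fgf, 524 (60.7%) were still higher there, 141 (16.3%) had turned to +Wnt and 198 did not pass, and the median difference went from 1.72 to 0.79.

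Group medians moved in both directions between the days. Differences grew in the tissue factors, the median moving from 1.40 to 2.82 in eye field factors, from -1.76 to -4.24 in melanin genes and from -1.15 to -2.60 in Wnt feedback genes. They were smaller at Day 15 in Fgf feedback genes (1.65 to 0.82), contractile genes (2.02 to 0.52), immediate early genes (1.71 to 0.067) and proteases (1.17 to 0.10). Medians changed sign in matrix genes (1.12 to -0.042) and annexins and S100 proteins (1.90 to -1.27) and, the other way, in early neuron genes (-1.04 to 1.09), proneural genes (-0.33 to 2.58) and photoreceptor genes (-0.68 to 1.079). Mmp9 turned from 6.58 at Day 12 to -3.59 at Day 15, a change of -10.17 (adjusted p = 1.3e-10), reading 2.43, 0.824 and 2.90 in +Fgf and 29.7, 25.4 and 20.3 in +Wnt at Day 15. Rxrg turned the other way, from -3.69 to 0.84 (4.53, adjusted p = 6.1e-10), with 6.86, 6.59 and 5.30 in +Fgf and 3.97, 2.91 and 3.30 in +Wnt at Day 15.

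**Figure D5:**
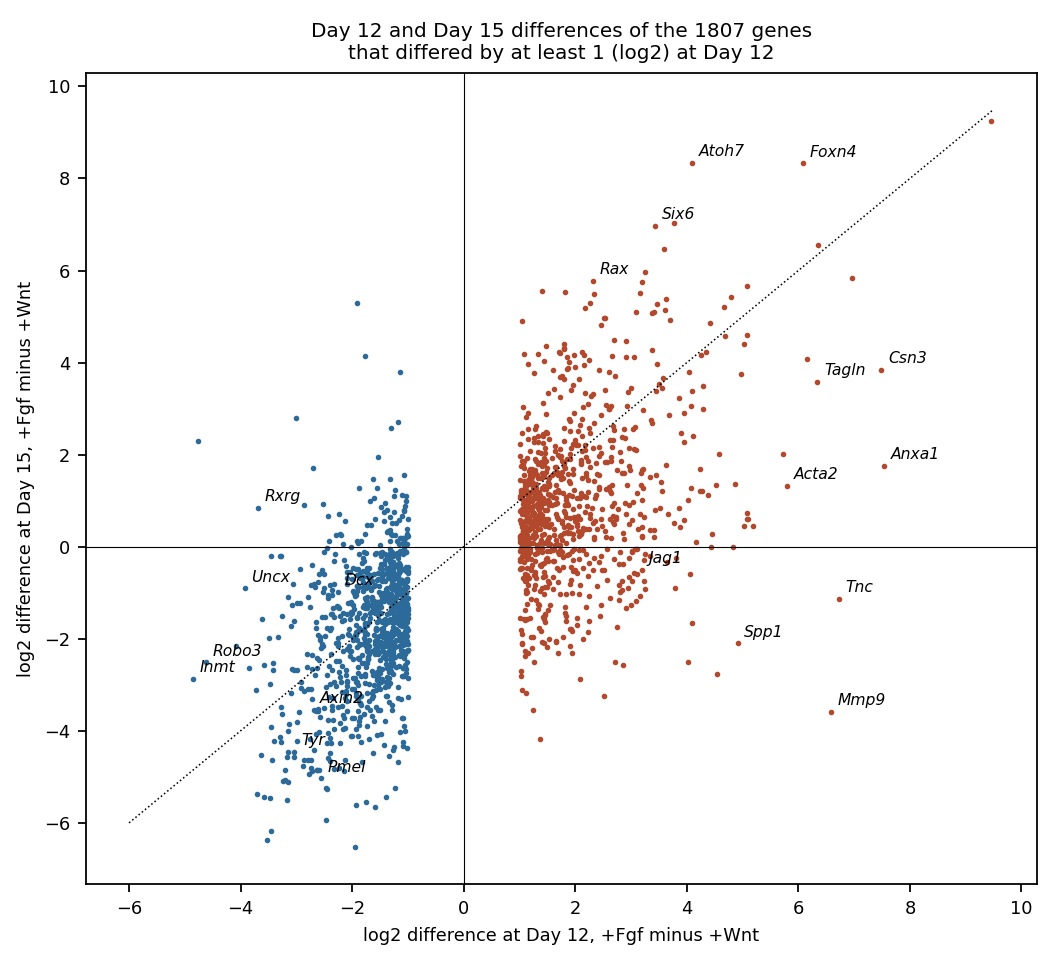
Each point is 1 of the 1807 genes that differed by at least 1 (log2) at Day 12, with the difference of +Fgf minus +Wnt at Day 12 on the x axis and at Day 15 on the y axis, and the dotted line marks equal differences. Red genes were higher in +Fgf at Day 12 and blue genes higher in +Wnt. Mmp9, Tnc and Spp1 lie below 0 at Day 15 despite large positive values at Day 12, while Atoh7, Foxn4, Six6 and Rax lie above it.

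The 3 libraries of each Day 12 arm were not alike in all groups. The order of the libraries over all tested genes was not counted. Whether the orders given here and above are particular to these groups was therefore not tested. In +Fgf, replicate 3 had the highest value of the 3 in 18 of 20 matrix genes, 15 of 16 annexins, S100 proteins and galectins, 11 of 13 Fgf feedback genes and 12 of 18 contractile genes. It had the lowest value in 22 of 23 sterol genes, 21 of 22 replication and mitosis genes and 19 of 24 glycolysis and hypoxia genes. Replicate 2 had the highest value in 21 of 24 glycolysis and hypoxia genes, 21 of 23 sterol genes and 10 of 11 mesenchyme markers. In +Wnt, replicate 1 had the highest value in 24 of 24 glycolysis and hypoxia genes and 13 of 15 melanin genes, replicate 2 the lowest in 23 of 24 glycolysis and hypoxia genes, and replicate 3 the lowest in 12 of 15 melanin genes. In matrix genes replicate 3 of +Fgf lay a median of 0.26 (log2) above the other two, against a median of 1.12 between the arms. In glycolysis and hypoxia genes the shift within an arm exceeded that between the arms (median -0.30), since replicate 2 of +Fgf lay 0.58 above and replicate 2 of +Wnt lay -0.51 from the others of its arm, and 12 to 20 of the 24 passed when 1 library was left out. In sterol genes replicates 2 and 3 of +Fgf lay 0.20 and -0.24 from the others, against 0.09 between the arms. Without replicate 3 of +Fgf, 18 of 20 matrix genes, 16 of 18 contractile genes and 15 of 15 melanin genes still passed the threshold.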

How the data were processed

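Libraries were stranded mRNA libraries of SFEBq tissue from 1 Rx::GFP cell line. Per the labels and the study's methods, the authors aligned reads to mm10 with TopHat2 2.0.8b, counted them on the UCSC mm10 transcriptome with Cuffdiff (Cufflinks 2.1.1) and normalized them with edgeR 3.2.4. The strand setting of the counting is not given in the sources used here, and exons of 18 of 76 named genes overlap a gene on the other strand. The deposited values are a normalized signal (columns sum to 936418 to 1.07545e+06), from which whole reads were recovered for 100% of non-zero values (within 0.01 reads).

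Values were tested as log2(value + 0.25), so that fold changes of low genes are understated, in 1 limma 3.58.1 model (R 4.3.3) of 5 group means and 15 libraries, with trended moderation, two-sided contrasts and Benjamini-Hochberg adjustment at 0.05. Entries needed a value of at least 1 in at least 3 libraries. P-values and SEs measure the spread between these samples within groups, pooled over the 5 groups of 15 libraries and moderated across genes. They are not the spread of the 3 libraries of a Day 12 group alone. In a simulation of the Day 12 comparison at the real depths, every group was given the mean of each gene over the 5 groups. Of 200 genes then changed by folds of 1.5 to 4, 187 were called (93.5%), with 7 false calls. Only 200 of 13845 genes differed there, whereas 51.5% were called in the data, so these rates do not carry over to the real comparison. Genes named were the 10 largest differences in each direction with at least 10 CPM, the 2 largest of each list and a fixed set, and list members given beside a count; some genes that these rules take are not reported here, though they remain in the counts over lists and over all genes. The members, lists (26 gene groups and 6 marker lists) and displayed sequences were chosen with earlier results of these data known. Entries that share a symbol (188 symbols) or name several genes (186) were not used as list members. Positions are from GENCODE for GRCm38 and upstream sequences from RefSeq for GRCm38.p6, with an entry for 10199 of 13765 tested symbols. Alternatives covered the pseudocount, filter, normalization, moderation, RNA integrity as a covariate, the replicate block, the libraries fitted, leaving out each replicate, and edgeR 4.0.16 on recovered reads.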

Additional observations from a re-analysis of the deposited data

Results flagged for a closer look

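The difference between +Fgf and +Wnt was not the same at Day 12 and Day 15 for 59 of 76 named genes, by the test of the change in difference over all genes (limma, adjusted p under 0.05), while over all tested genes 6609 (47.7%) changed, or 3829 with RNA integrity as a covariate. Each value here is the log2 difference at Day 15 minus that at Day 12, and genes of both days come from separate libraries.

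In 11 genes the sign at Day 15 was opposite to that at Day 12, the changes being Tnc -7.86, Mmp9 -10.17, Spp1 -7.01, Sema3e -4.84, Jag1 -3.69, Col1a1 -5.43, Krt8 -4.96, Hk2 -1.06, Epcam 0.80, Thrb 1.90 and Rxrg 4.53. Of these, Sema3e, Hk2 and Epcam had differences close to 0 at Day 15 (-0.012, -0.035 and 0.063), and Mmp9 had the most negative change of the named genes. Among genes higher in +Fgf at Day 12 with the same sign at Day 15, the difference was larger at Day 15 for 14, with changes of Foxn4 2.24, Atoh7 4.26, Isl1 3.25, Tbx3 1.81, Six6 3.54, Ccnd1 1.501, Rax 3.47, Pax2 3.03, Hes1 0.58, Bmpr1b 1.02, Pax6 0.38, Rrm2 0.66, Ccne2 0.99 and Mki67 1.23. These are eye field, retinal neurogenic, regional and cell cycle genes for the most part. The difference was smaller at Day 15 for 18 genes, with changes of Anxa1 -5.78, Csn3 -3.64, Tagln -2.76, Grb10 -2.08, Acta2 -4.47, Tgfb1 -4.46, Kdr -1.21, Plau -3.17, S100a10 -1.85, Cdkn2b -2.68, Myc -2.63, Junb -3.04, Tgfbi -0.83, Lgr5 -1.27, Etv5 -0.46, Etv4 -1.95, Spry4 -0.69 and Rrp12 -0.29. Of these, Tgfb1 and Junb did not pass at Day 15 (0.61 and 0.37). Contractile, protease, TGF-β, Fgf feedback and immediate early genes are among them.

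Among genes higher in +Wnt at Day 12 with the same sign at Day 15, the difference was larger at Day 15 for 9, with changes of Lef1 -1.58, Mitf -2.10, Hhip -1.29, Pmel -2.48, Rlbp1 -0.92, Axin2 -0.86, Tyr -1.42, Slc11a1 -2.86 and Tal2 -0.88, which include the pigment genes and Wnt feedback genes. It was smaller for 7, with changes of Otx2 0.43, Tfap2b 1.31, Lmo3 1.496, Lhx9 1.23, Uncx 3.03, Robo3 2.11 and Inmt 1.98. Of these, Uncx did not pass at Day 15 (-0.90).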

How the results depend on the processing

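Of 1290 values of the 76 named genes under 17 alternatives, 1274 kept their direction and side of the threshold, 14 no longer passed (Emx1 and Hmgcs1), 2 passed anew (Lhx2) and none turned. With the replicate number as a block, 7086 genes were called (3617 higher in +Fgf and 3469 in +Wnt), and no call of a named gene changed. Deviations from the group means in same-numbered libraries of the arms were correlated at -0.018, -0.010 and 0.024. Pairs with different numbers had -0.018 to 0.040. Such values over all genes cannot show whether same-numbered samples shared a culture, so pairing by number is not known. The share of called genes higher in +Fgf, 51.0%, turned below an even split to 47.1% with quantile normalization and 47.8% with edgeR on recovered reads (3408 higher in +Fgf and 3724 in +Wnt), and was nearly even with median-of-ratios scaling (3557 and 3553), so no balance of directions is read from these counts. Genes with a difference of at least 1 numbered 1125 with the filter of 10 CPM, which tests fewer genes. Genes whose difference changed between the days numbered 3829 with RNA integrity as a covariate, and the cause was not tested. Leaving out each library in turn gave 6197 to 6679 genes called, 1714 to 1916 with a difference of at least 1, a share of 50.3% to 51.4%, and 5995 to 6346 changed between the days.

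Of the lists, 5 pluripotent markers passed, against 2 with a pseudocount of 0.05, 2 with no filter, 1 with the 10 CPM filter, 0 with moderation without a trend, and 0 to 5 when a library was left out. Photoreceptor genes went from 5 to 3 with the 10 CPM filter. Endoderm and mesoderm markers went from 1 to 2 with edgeR, and ranged from 1 to 2 when a library was left out. Depth limits genes of a few reads in an arm, such as Foxn4 in +Wnt, whose difference was 4.78 with a pseudocount of 1 and 7.04 with edgeR.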
